A study of Rattus norvegicus with 6 samples.

Results

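The genes described here carry glucose into cells, break it down to lactate, store it as glycogen and pass it through the pentose phosphate pathway. They were taken from the expression table by name, from a list of 38 symbols. A row under the listed name was found for 37 of them, of 34045 genes in the table, and Pgd was not analysed here. The measurements come from 6 RNA sequencing libraries of calvarial (skull roof) bone defects of male wild type Sprague-Dawley rats, collected at week 4 after surgery. The defects had received either a hydrogel named CGG (3 libraries) or a hydrogel named CGG-Cit (3 libraries), and the age of the rats and the makeup of the gels are not given in the labels. All 6 libraries are from gel-filled defects, and no unfilled defect or intact bone was analysed here. Whether each library is a rat of its own is not in the labels, so the p-values speak for the spread among these libraries alone, and part of that spread may be technical. Recovered depth was 14744207 to 16224920 assigned fragments per library.

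Glycolysis splits glucose into pyruvate in the cytosol and yields ATP without oxygen, and lactate dehydrogenase then turns pyruvate into lactate, which leaves the cell through monocarboxylate carriers. Many of its steps have several isozymes from different genes. Skeletal muscle fibres use their own forms of phosphofructokinase, phosphoglycerate mutase, enolase and glycogen phosphorylase and an insulin-regulated glucose carrier, whereas most other cells use widespread forms. The pentose phosphate pathway draws on the same glucose phosphate to make NADPH and ribose. In this list Slc2a4, Pfkm, Pgam2, Eno3, Pygm, Fbp2 and Pfkfb1 were treated as the 7 muscle isozymes, Pfkfb1 being a form of liver and muscle, and the other 30 measured genes as widespread.

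The promoters of 3 of the genes with large differences, and of Pgam1 as the widespread partner of Pgam2, are shown to let the reader set a muscle form beside its widespread form. Each is the 250 bases before the gene's start in RefSeq (build GRCr8), 5′ to 3′ on the gene's own strand. Capitals mark matches on either strand to the E-box CANNTG, a motif that muscle determination factors can bind, and to the consensus site of the MEF2 factors of muscle. The CArG box of serum response factor, ACGTG (the core bound by hypoxia-inducible factors) and TATAAA were also searched on both strands and are not in capitals. The windows are chr14:84897875-84898124 (minus strand), chr1:250672902-250673151 (plus strand), chr10:55868936-55869185 (plus strand) and chr1:190837649-190837898 (minus strand).
Pgam2: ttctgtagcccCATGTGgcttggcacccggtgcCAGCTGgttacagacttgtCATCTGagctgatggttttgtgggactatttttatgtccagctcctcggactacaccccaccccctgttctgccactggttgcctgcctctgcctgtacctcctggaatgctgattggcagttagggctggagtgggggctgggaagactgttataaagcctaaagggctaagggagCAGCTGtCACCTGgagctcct
Pgam1: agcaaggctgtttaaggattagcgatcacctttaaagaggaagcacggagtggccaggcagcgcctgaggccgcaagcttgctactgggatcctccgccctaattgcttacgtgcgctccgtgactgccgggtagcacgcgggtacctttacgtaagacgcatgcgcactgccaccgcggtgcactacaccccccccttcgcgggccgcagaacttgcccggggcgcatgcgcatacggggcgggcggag
Eno3: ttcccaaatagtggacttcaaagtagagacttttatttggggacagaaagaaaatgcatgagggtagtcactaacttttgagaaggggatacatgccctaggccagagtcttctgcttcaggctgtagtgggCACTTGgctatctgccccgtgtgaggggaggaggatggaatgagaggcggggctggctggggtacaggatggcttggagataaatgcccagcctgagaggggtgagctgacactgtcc
Aldoa: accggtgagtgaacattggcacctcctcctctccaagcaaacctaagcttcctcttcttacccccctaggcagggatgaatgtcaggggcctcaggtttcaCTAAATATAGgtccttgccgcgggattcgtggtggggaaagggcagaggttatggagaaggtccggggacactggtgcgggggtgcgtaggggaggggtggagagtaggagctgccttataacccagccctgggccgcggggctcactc
Pgam2 held 5 E-box matches, at -239, -217, -198, -21 and -14 (first base, counted back from the start), Eno3 held 1 at -118, and Pgam1 held none. Eno1, the widespread partner of Eno3, is not printed and held matches at -204, -107 and -38 in 1 of its 2 listed windows. Aldoa has 3 listed starts, and the window shown is the one with a MEF2 match, at -149. RefSeq held windows for 34 of the 38 listed genes. An E-box was present in 65.5% of all 33469 windows and a MEF2 match in 2.96%, and 4 of 5 windows of muscle isozymes and 18 of 33 windows of widespread members held an E-box. A MEF2 match was in 0 of the 5 and 1 of the 33. The CArG box was in 1.5% of all windows, 0 of the 5 and 1 of the 33, ACGTG in 16.6%, 2 and 14, and TATAAA in 12.9%, 1 and 3. A match describes letters only. The expression table has 1 value a gene, so reads from the 3 Aldoa starts cannot be separated.

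The transcripts of the glycolytic pathway were lower in CGG-Cit than in CGG at many steps, and 5 of the 7 muscle isozymes (Eno3, Pygm, Pgam2, Pfkm and Slc2a4) had the 5 largest differences among the members on the scale used here. Fbp2, which rests on 5 fragments in CGG-Cit, passed Slc2a4 in that order with smaller pseudocounts, under TPM and with voom. At a pseudocount of 0.1 it passed Pfkm too (-4.06). In mean FPKM its fall was the largest among the members, 36.2-fold against 26.7-fold for Eno3. Levels are in FPKM, the fragments per kilobase of gene scaled by a factor for each library. Each difference is the CGG-Cit mean less the CGG mean of log2(FPKM + 1), a scale on which low genes appear to change less than they do. Passing means an adjusted p under 0.05 with limma, a linear model fitted to all 15965 genes whose mean reached 0.5 FPKM, with Benjamini-Hochberg adjustment over all of them. All 37 measured members lay above that minimum, Fbp2 only through its CGG libraries. Of the 37 members 16 fell, Fbp2 among them, and 2 rose. Among all tested genes 9.78% fell, 7.75% rose and 17.5% changed in either direction. After rescaling to TPM, which lifts the median of all genes to 0.16, 14 members fell and 3 rose, against 5.94% and 13.8% of all genes and 19.7% in either direction. In 25 of the 37 the groups stood apart without overlap, against 41.7% of all genes tested. The median difference was -2.71 over the muscle isozymes, -0.45 over the widespread members and 0.00 over all genes tested. Among the muscle isozymes 7 of 7 fell. Among the 30 widespread members 9 fell (Gpi, Aldoa, Gapdh, Pfkfb4, Pygl, Gys1, Gbe1, Pgm1 and Tkt), 2 rose (Slc2a1 and Pygb) and 19 did not pass. In bulk tissue, fewer cells of a type and less RNA per cell cannot be told apart.

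**Figure D1:**
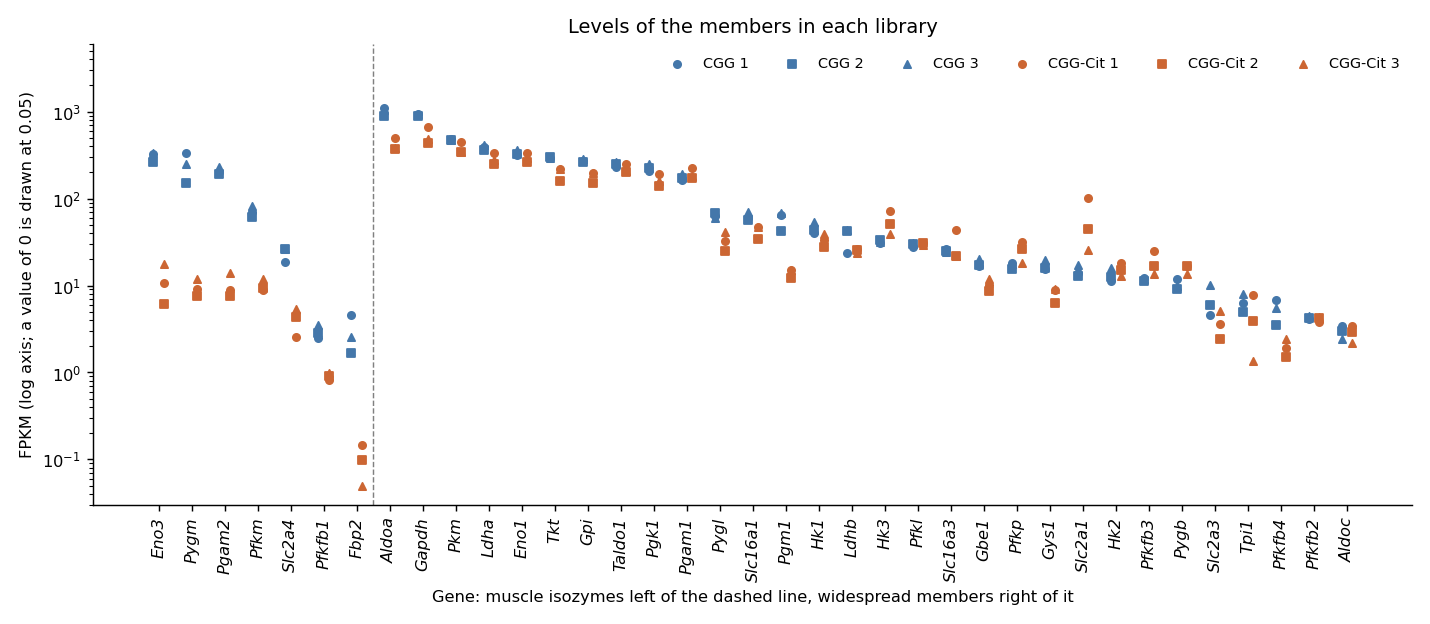
FPKM of each of the 37 measured genes (x axis) in the 6 libraries (y axis, log scale, 0 drawn at 0.05), CGG in blue and CGG-Cit in orange, with circles, squares and triangles for libraries 1, 2 and 3. Left of the dashed line the 7 muscle isozymes show no overlap between the groups. To the right 18 of the 30 widespread genes also show none, against 41.7% of all genes tested, although the groups of many lie close together.

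Of the 5 glucose and lactate carriers 1 fell, 1 rose and 3 did not pass. Slc2a4, the insulin-regulated glucose carrier of muscle and fat (ENSRNOG00000017226, listed at chromosome 10, 56552983 to 56558487, with no build), stood at 18.6, 26.2 and 26.1 FPKM in CGG 1, 2 and 3 and at 2.58, 4.34 and 5.37 in CGG-Cit 1, 2 and 3. Every CGG library was above every CGG-Cit library, and the gene fell by 2.29 ± 0.241 (SE; adjusted p = 0.00512, limma), 5.76-fold in mean FPKM. Slc2a1, the basal glucose carrier of most cells and of barrier endothelium (ENSRNOG00000007284, listed at chromosome 5, 138154673 to 138182897), moved the other way, from 14.0, 12.8 and 17.1 FPKM in CGG to 101.0, 44.97 and 25.8 in CGG-Cit. The CGG-Cit libraries spanned a wide range, with CGG-Cit 1 the highest and CGG-Cit 3 the nearest to CGG. It rose by 1.69 ± 0.449 (SE; adjusted p = 0.0465). CGG-Cit 3 was the one library whose removal kept that call, which the other 5 removals ended (adjusted p = 0.0536 to 0.12) as did testing without the filter on low values (0.0775).

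Of the 3 other carriers 0 passed with limma (1 at an unadjusted p under 0.05, Slc16a1, and 0 with voom, limma's method for counts, on the recovered fragments). Slc2a3, a high-affinity glucose carrier, was at 4.61, 5.96 and 10.1 FPKM in CGG and 3.62, 2.45 and 5.11 in CGG-Cit, with overlap (adjusted p = 0.147). Slc16a1, a carrier of lactate and pyruvate, stood at 59.9, 56.3 and 70.8 FPKM in CGG and 47.2, 33.9 and 47.1 in CGG-Cit, without overlap (adjusted p = 0.0594). Slc16a3, the lactate exporter of glycolytic cells, ranged from 24.5 to 26.4 FPKM in CGG and stood at 43.1, 22.1 and 21.9 in CGG-Cit, so only CGG-Cit 1 was above the CGG range. The summed FPKM of the 3 glucose carriers was 37.2, 44.96 and 53.2 in CGG and 107, 51.8 and 36.3 in CGG-Cit, which overlap. Within that sum Slc2a4 took 49.1 to 58.2% in CGG and 2.41 to 14.8% in CGG-Cit, and Slc2a1 took 28.5 to 37.7% and 71.1 to 94.2%.

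At the steps from glucose to triose phosphates, muscle phosphofructokinase and aldolase showed the largest falls and neither of the other phosphofructokinases passed the test. Hexokinase traps glucose as glucose phosphate. Hk1, its widespread form, stood at 40.5, 43.7 and 53.5 FPKM in CGG and 33.3, 27.6 and 38.7 in CGG-Cit, and Hk3, the form abundant in white blood cells, at 30.8, 33.2 and 31.8 and then 71.8, 50.4 and 38.7. Neither overlapped between groups and neither passed (adjusted p = 0.0899 and 0.0673). Hk3 passed after rescaling to TPM (0.0305), with equal totals without the 50 most abundant genes (0.0479) and without CGG-Cit 3 (0.0184). Hk2, the inducible and insulin-responsive form, ranged from 11.2 to 15.8 FPKM in CGG and from 12.7 to 18.0 in CGG-Cit. Gpi, which converts glucose phosphate to fructose phosphate, was at 273, 263 and 284.0 FPKM in CGG and 196, 150.2 and 194 in CGG-Cit, without overlap, and fell by 0.61 ± 0.127 (SE; adjusted p = 0.0262). It did not pass after rescaling to TPM (0.0771) or without any single library except CGG-Cit 3 (0.051 to 0.0921).

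Pfkm, the muscle subunit of phosphofructokinase, the committing step (ENSRNOG00000057988, listed at chromosome 7, 139685573 to 139722132), stood at 70.8, 60.6 and 82.3 FPKM in CGG and 8.77, 9.47 and 11.8 in CGG-Cit. The groups did not overlap, and the gene fell by 2.71 ± 0.152 (SE; adjusted p = 0.00109, limma), 7.12-fold in mean FPKM. Pfkl, the liver-type subunit, was at 27.7, 30.1 and 30.9 and then 30.8, 31.1 and 29.1 FPKM, a difference of 0.04 ± 0.0841 with overlapping groups. Pfkp, the platelet-type subunit, was at 18.3, 15.6 and 17.8 and then 31.8, 26.3 and 18.1, where CGG-Cit 3 lay within the CGG range (adjusted p = 0.125, and 0.0184 without CGG-Cit 3). Of the summed phosphofructokinase FPKM, Pfkm held 60.2% ± 2.94 in the CGG libraries (SD, n = 3) and 15.5% ± 4.01 in the CGG-Cit libraries. The sum itself went from 118 ± 12.4 to 65.7 ± 6.24 FPKM.

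Aldoa, the aldolase of muscle and most other tissues (ENSRNOG00000052802, listed at chromosome 1, 198228387 to 198233588), had the highest level of the members in CGG, at 1096, 901 and 1034 FPKM, and stood at 495, 376 and 379.5 in CGG-Cit. Its groups did not overlap, and it fell by 1.28 ± 0.152 (SE; adjusted p = 0.00775). Aldoc, the brain form, lay at 2.16 to 3.46 FPKM over all 6 libraries, with overlapping groups. Tpi1, triosephosphate isomerase, was listed at 6.25, 4.92 and 8.05 FPKM in CGG and 7.70, 3.90 and 1.36 in CGG-Cit, far under its neighbours in the pathway. The table also lists LOC100911515, described as like triosephosphate isomerase, at 36.0, 42.8 and 36.1 FPKM in CGG and 29.3, 20.6 and 54.2 in CGG-Cit. Reads may be divided between these near-identical loci, so the value of Tpi1 is uncertain, and their sum did not pass either (adjusted p = 0.522).

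**Figure D2:**
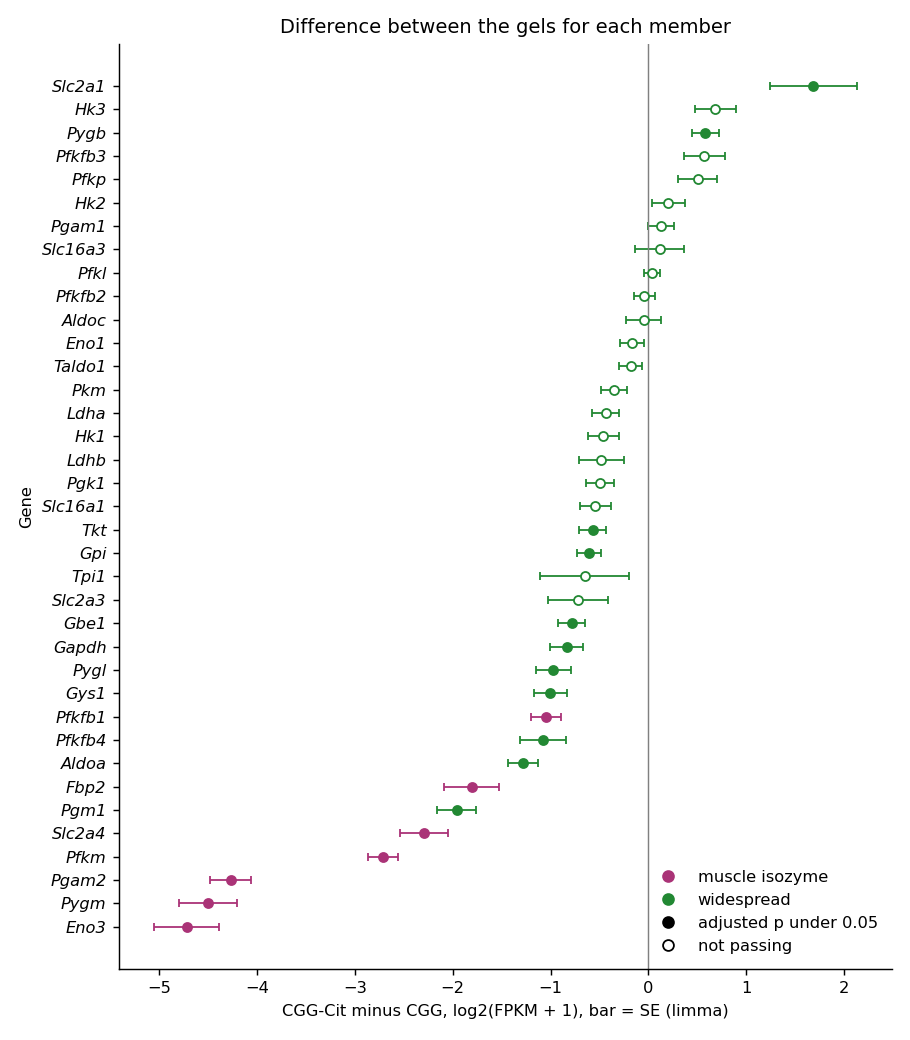
Difference between CGG-Cit and CGG for each of the 37 genes (x axis, log2(FPKM + 1) scale, bars are SE from limma), purple for muscle isozymes and green for widespread genes, filled where the adjusted p was under 0.05. Eno3, Pygm, Pgam2, Pfkm and Slc2a4 stand furthest left, at -4.72 to -2.29, and Slc2a1 furthest right, at 1.69.

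From triose phosphates to lactate, both muscle isozymes fell, Pgam2 20.6-fold and Eno3 26.7-fold in mean FPKM, and neither widespread partner passed the test. Pgam2, the muscle phosphoglycerate mutase (ENSRNOG00000013532, listed at chromosome 14, 86044969 to 86047162), whose promoter with 5 E-box matches is printed above, stood at 202, 193 and 229 FPKM in CGG and 8.79, 7.51 and 14.1 in CGG-Cit. It fell by 4.27 ± 0.213 (SE; adjusted p = 0.00109, limma), 20.6-fold in mean FPKM, with no overlap. Pgam1, the widespread form, was at 164, 170.5 and 190 FPKM and then 226, 171 and 180, overlapping, with a difference of 0.13 ± 0.132. Eno3, the muscle enolase (ENSRNOG00000004078, listed at chromosome 10, 57278307 to 57283653), was at 329, 263.5 and 333.5 FPKM in CGG and 10.8, 6.17 and 17.8 in CGG-Cit. The highest CGG-Cit value was that of CGG-Cit 3, and the gene fell by 4.72 ± 0.33 (SE; adjusted p = 0.00173), 26.7-fold. Eno1, the widespread enolase, was at 314, 324 and 361 FPKM and then 338, 262 and 293, also overlapping, with a difference of -0.17 ± 0.125.

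In CGG the muscle and widespread forms thus stood at like levels, with Pgam2 at 53.1 to 55.2% of the summed phosphoglycerate mutase FPKM and Eno3 at 44.9 to 51.1% of the enolase sum. In CGG-Cit these shares were 3.74 to 7.26% and 2.3 to 5.71%. The mutase sum went from 383 ± 31.3 to 203 ± 29.2 FPKM (SD, n = 3) and the enolase sum from 641.5 ± 53.8 to 309 ± 40.1. Neither pair of sums overlapped. Of 10 summed steps 6 did not overlap between the groups (phosphofructokinase, aldolase, phosphoglycerate mutase, enolase, lactate dehydrogenase and glycogen phosphorylase), each with an exact two-sided permutation p of 0.1, the smallest that 3 against 3 libraries allow, and 0.167 after adjustment over the 10. The hexokinase, glucose carrier, lactate carrier and PFKFB sums overlapped.

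**Figure D3:**
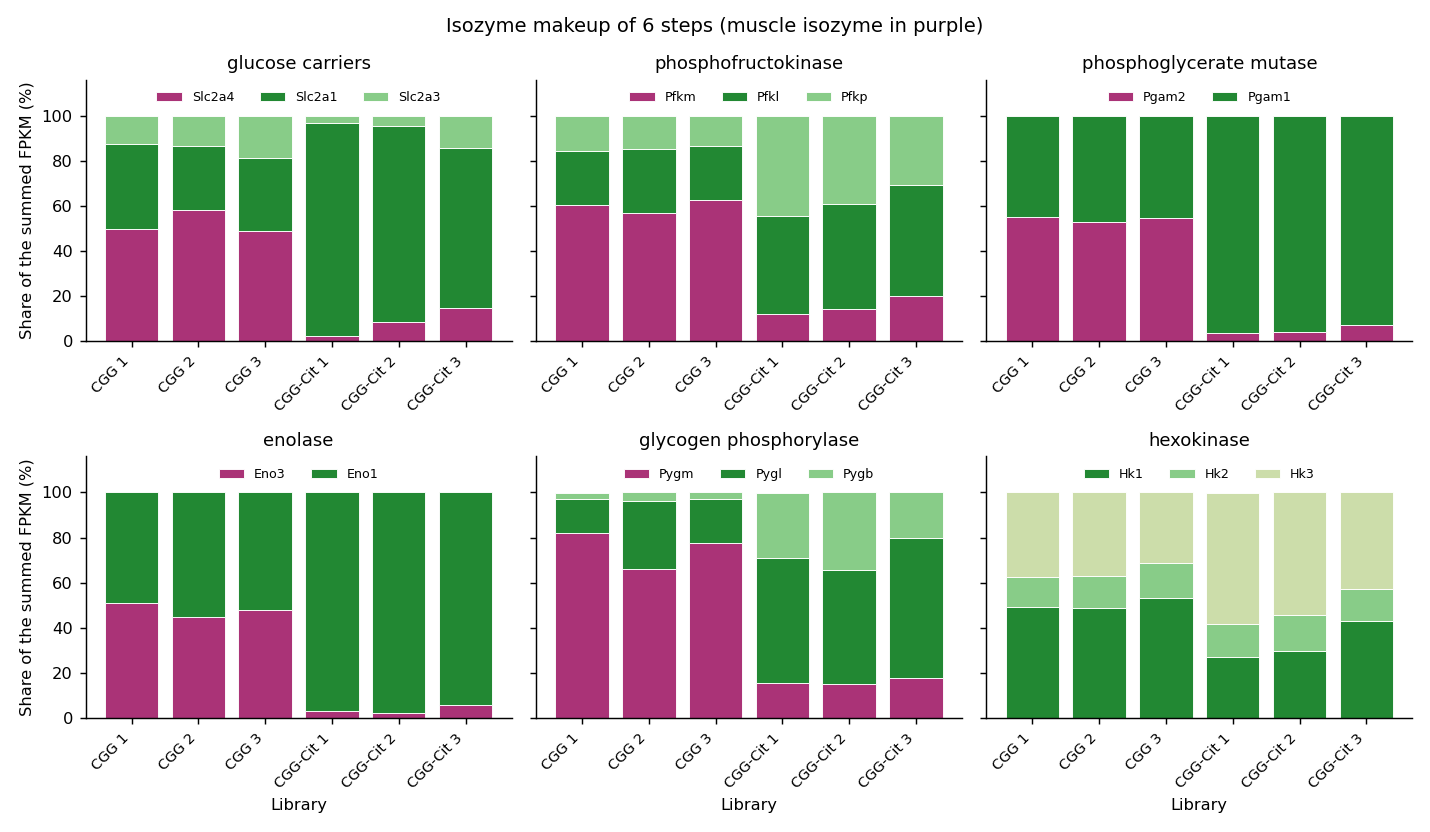
Share of each isozyme in the summed FPKM of its step (y axis, percent) in each library (x axis), for 6 steps, with the muscle isozyme in purple where the step has one. Purple takes 44.9 to 81.9% of the bars in the CGG libraries and 2.3 to 20% in the CGG-Cit libraries.

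Gapdh, which oxidises triose phosphate and makes NADH, fell from 937, 899 and 949 FPKM in CGG to 665, 441 and 480 in CGG-Cit, without overlap (-0.83 ± 0.17 SE; adjusted p = 0.0248). Leaving out CGG-Cit 2, or any one of the CGG libraries, ended that call (adjusted p = 0.0644 to 0.0889). A protein-coding copy of Gapdh, LOC108351137, was listed at 229 ± 33.1 and 136 ± 29.3 FPKM (SD, n = 3), and the sum of both also passed (adjusted p = 0.0266). Pgk1, the kinase that makes the ATP of the next step, was at 208, 223 and 252 and then 189, 138 and 160 FPKM. Pkm, pyruvate kinase, was at 489, 474 and 477 and then 448, 344 and 345. Ldha, the main lactate dehydrogenase of glycolytic cells, was at 387, 359 and 411 and then 338, 248 and 276. These 3 genes were lower in every CGG-Cit library than in any CGG library, yet they did not pass (adjusted p = 0.0584, 0.11 and 0.0734). Ldhb, the form common in oxidative tissue, was at 23.9, 42.7 and 43.5 FPKM in CGG and 26.0, 25.6 and 23.8 in CGG-Cit, so CGG 1 lay among the CGG-Cit values. Without CGG 1 it passed (adjusted p = 0.0212). Pseudogenes of Ldha, Pkm and Eno1 in the table stood at 4.08 to 27.1 FPKM in single libraries, and adding them to their parents left these 3 genes short of the threshold (adjusted p = 0.0697, 0.118 and 0.379).

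Among the enzymes that set the pace or reverse the flow, the muscle forms and Pfkfb4 fell. The PFKFB enzymes make and remove the signal metabolite that activates phosphofructokinase. Pfkfb1 was at 2.51, 2.85 and 3.56 FPKM in CGG and 0.828, 0.918 and 0.995 in CGG-Cit, 274 against 86 fragments in all, and fell by 1.05 ± 0.154 (SE; adjusted p = 0.0129). Pfkfb4, a form induced by low oxygen, was at 6.79, 3.50 and 5.58 and then 1.92, 1.49 and 2.42 FPKM and fell by 1.07 ± 0.235 (adjusted p = 0.0284). Pfkfb3, the form with the strongest drive towards glycolysis, was at 12.1, 11.4 and 11.8 and then 25.3, 16.7 and 13.6 FPKM. Its groups did not overlap, and it did not pass (adjusted p = 0.104, and 0.0388 without CGG-Cit 3). Pfkfb2 lay at 3.80 to 4.41 FPKM in all libraries. Pfkfb3 made up 46.5 to 51.8% of the summed PFKFB FPKM in CGG and 63.6 to 79.4% in CGG-Cit. Fbp2, the muscle fructose bisphosphatase of the reverse path, was at 4.62, 1.68 and 2.57 FPKM in CGG and 0.148, 0.0975 and 0 in CGG-Cit, which are 185 and 5 fragments in all. It met the minimum level only through its CGG libraries, and its difference of -1.81 (adjusted p = 0.0151) depends on the pseudocount. The calls of Fbp2 and Pfkfb1 ended without CGG 3 (adjusted p = 0.0592 and 0.0535) or CGG-Cit 2 (0.0553 and 0.053). The call of Pfkfb4 was lost when any library other than CGG 2 and CGG-Cit 3 was left out (0.0731 to 0.0979) and without the filter (0.0521).

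Of the 6 glycogen genes 5 fell and 1 rose, where 9.78% of all tested genes fell and 7.75% rose. Pygm, the muscle glycogen phosphorylase that frees glucose phosphate from glycogen (ENSRNOG00000021090, listed at chromosome 1, 221756286 to 221771143), was at 337, 151 and 247 FPKM in CGG and 9.13, 7.49 and 11.8 in CGG-Cit. CGG 1 was the highest and CGG 2 the lowest of the CGG libraries, all of them far above CGG-Cit, and the gene fell by 4.50 ± 0.299 (SE; adjusted p = 0.00155, limma), 25.9-fold. Pygl, the liver form that white blood cells also use, fell from 62.5, 68.3 and 60.5 FPKM to 32.3, 24.7 and 41.0 (-0.97 ± 0.178 SE; adjusted p = 0.0199). Pygb, the brain form, rose from 11.7, 9.02 and 9.80 FPKM to 16.9, 16.8 and 13.5 (0.58 ± 0.137 SE; adjusted p = 0.034). None of the 3 phosphorylases overlapped between groups. Of their summed FPKM, Pygm held 66.2 to 81.9% in CGG and 15.3 to 17.8% in CGG-Cit, and the sum fell 5.51-fold, from 319 ± 91.2 to 57.8 ± 8.62 FPKM (SD, n = 3).

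Pgm1, the mutase that links glucose phosphate to glycogen, was at 65.4, 42.6 and 69.1 FPKM in CGG and 15.0, 12.3 and 15.2 in CGG-Cit and fell by 1.96 ± 0.196 (SE; adjusted p = 0.00455), the largest fall among the widespread members. Gys1, the glycogen synthase of muscle and most other tissues, was at 15.5, 16.05 and 19.8 and then 8.86, 6.23 and 9.17 FPKM (-1.002 ± 0.167 SE; adjusted p = 0.017). Gbe1, the branching enzyme, was at 16.9, 17.4 and 20.4 and then 10.3, 8.54 and 11.8 FPKM (-0.78 ± 0.139 SE; adjusted p = 0.0191). The groups of all 3 were apart. Without CGG 3 the calls of Pygl, Pygb, Gys1 and Gbe1 ended (adjusted p = 0.0641 to 0.107). Those of Pygl, Pygb and Gbe1 also ended without CGG 2, CGG-Cit 1 or CGG-Cit 2 (0.0517 to 0.116) and that of Pygl without CGG 1 (0.054). The call of Pygb ended without the filter too (0.0526).

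The measured pentose phosphate enzymes were Tkt and Taldo1, which shuttle carbons between sugar phosphates. Tkt, transketolase, was at 293, 297 and 290 FPKM in CGG and 220, 160.5 and 218.5 in CGG-Cit and fell by 0.57 ± 0.14 (SE; adjusted p = 0.038). That call ended after rescaling to TPM (adjusted p = 0.108), without the filter (0.0593) and without any single library except CGG-Cit 3 (0.0601 to 0.11). Taldo1, transaldolase, was at 230, 253 and 265 and then 250, 202 and 208.5 FPKM, overlapping (adjusted p = 0.315). 

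Within libraries, the muscle isozymes other than Fbp2 were set against widespread partners, where the scaling of libraries plays little part. Over the 9 pairs chosen the log2 ratio of FPKM + 1 was lower in CGG-Cit in every pair, with no overlap between groups in any. The mean ratio of Eno3 to Eno1 was -0.12 ± 0.18 in CGG (SD, n = 3) against -4.67 ± 0.63 in CGG-Cit, and that of Pgam2 to Pgam1 was 0.25 ± 0.06 and -4.15 ± 0.50. The difference was -5.08 for Pygm against Pygb, -3.53 for Pygm against Pygl, -2.75 for Pfkm against Pfkl and -3.22 for Pfkm against Pfkp. It was -3.98 for Slc2a4 against Slc2a1, -1.58 for Slc2a4 against Slc2a3 and -1.62 for Pfkfb1 against Pfkfb3. Pfkfb1, with a difference of -1.05 by itself, was not set against Pfkfb2 (-0.04) or Pfkfb4, which had a fall of like size (-1.07). Each pair had an exact two-sided permutation p of 0.1, also after adjustment over the 9 pairs, and 3 against 3 libraries cannot give a smaller one. The pairs that share a gene are not independent of each other.

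Markers of skeletal muscle fibres moved with the muscle isozymes. Of 13 measured fibre markers 13 fell, with differences of -6.43 to -3.43, and 8 passed without CGG 3, where Casq1, Mb, Myl1, Pvalb and Tnnc2 did not (adjusted p = 0.0517 to 0.0933). Their summed level was 7586 to 10053.5 FPKM in CGG and 111, 47.7 and 410 in CGG-Cit 1, 2 and 3, while the 7 muscle isozymes summed to 699 to 964 FPKM and then 41.0, 36.0 and 61.8. CGG-Cit 3 was the highest of its group and CGG-Cit 2 the lowest in both sums. The most abundant fibre markers were Acta1, the actin of skeletal muscle, with means of 2323 ± 355 and 43.7 ± 50.4 FPKM (SD, n = 3), and Ckm, the muscle creatine kinase, which averaged 1231 ± 234 and 20.6 ± 23.6. Ckm stood 59.7-fold lower in CGG-Cit, Eno3 26.7-fold, Pfkm 7.12-fold and Slc2a4 5.76-fold lower. The part of muscle tissue content in these differences was not tested. The cardiac markers Myh6 and Tnni3 were at 0.718 FPKM or less in every library. In the list of cardiac and smooth muscle genes 0 of 3 tested passed with limma (0 before adjustment at p under 0.05, and 0 by voom). CGG 2 had the highest level of its leading genes, Acta2 (198.5 FPKM) and Myh11 (51.1 FPKM), and without CGG 2 both Acta2 (adjusted p = 0.0475) and Cnn1 (0.0196), a smooth muscle gene chosen after its values were seen, passed as higher in CGG-Cit.

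Markers of blood cells and macrophages differed between the groups as well, in calls that often ended when 1 library was left out. Fewer of all genes passed too without CGG 3 (1.95%) or CGG-Cit 2 (2.49%), against 17.5% with all 6 libraries. Of 11 tested neutrophil markers 11 fell, with sums of 15300.9 to 17472.5 FPKM in CGG and 2462 to 6355 in CGG-Cit. S100a9 averaged 6405 ± 322 and 1622 ± 826 FPKM (SD, n = 3) and S100a8 5432 ± 356 and 1287 ± 563. The number passing was 0 without CGG 3 (adjusted p = 0.0517 to 0.118), 1 when CGG 2 or CGG-Cit 1 was left out, 3 for CGG-Cit 2 and 6 for CGG 1. Of 9 erythroid markers 9 fell, with sums of 1167 to 1443 and 370 to 689 FPKM, led by Ahsp and Slc4a1. Tspo2 alone passed without CGG 3, 4 of the 9 without CGG 2, CGG-Cit 1 or CGG-Cit 2, and 5 without CGG 1. Of 11 macrophage markers 9 rose and 0 fell, with sums of 954 to 1091 and 1763 to 2583 FPKM. The list was led by Cd68 (adjusted p = 0.0176) and Lgmn (0.0115), both of them lysosomal. The 2 that did not pass were Mrc1, higher in CGG-Cit (adjusted p = 0.057), and Cd163, lower with overlapping groups (0.223). Msr1 alone passed without CGG 3 (Cd68 at 0.0656, Lgmn at 0.0535) or CGG-Cit 2, and 3 of the 11 passed without CGG 2 or CGG-Cit 1. Pygl, Gpi, Gbe1 and Tkt, which fell, and Hk3, which was higher without passing, were measured in the same libraries, and the part of these cell types in their values was not tested. Of 8 osteoblast and osteocyte markers 5 fell, among them Bglap (osteocalcin), while Col1a1 did not pass (adjusted p = 0.138). Phospho1 alone passed when CGG-Cit 2 or any one CGG library was left out (Bglap at 0.0835 to 0.146), 2 passed without the filter and 3 under TPM, where Bglap was at 0.0541. Of 5 tested osteoclast markers Ocstamp, outside the naming rule and chosen after its values were seen, rose, a call that ended without CGG 2, CGG 3 or either of CGG-Cit 1 and 2 (adjusted p = 0.0642 to 0.0952), and the abundant Ctsk and Acp5 did not pass. Of 2 tested brain markers, Mbp and Gfap, 0 passed with limma (0 at an unadjusted p under 0.05).

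**Figure D4:**
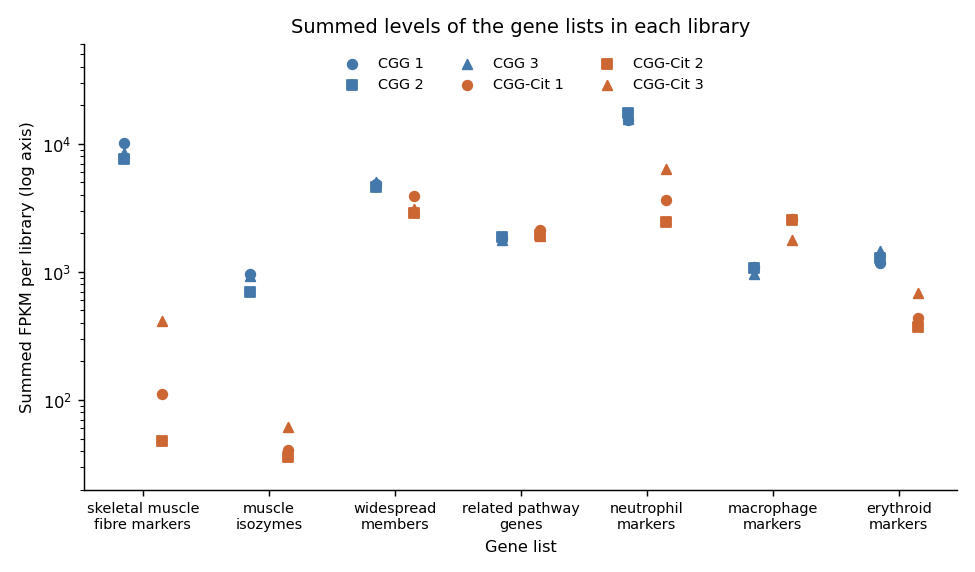
Summed FPKM of each gene list in each library (y axis, log scale), CGG in blue and CGG-Cit in orange, with circles, squares and triangles for libraries 1, 2 and 3. The muscle isozymes drop from 699 to 964 FPKM in CGG to 36.0 to 61.8 in CGG-Cit beside the fibre markers, while the widespread members lie at 4622 to 5041 and 2870 to 3898.

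Other genes of glucose and glycogen handling, from a list of 66 symbols, matched 62 rows, and 56 of these were tested. Of the 56, 19 fell and 8 rose, where 9.78% of all tested genes fell and 7.75% rose, with a median difference of -0.06. Those with the smallest p are given here. Phkg1, the catalytic subunit of muscle phosphorylase kinase, which switches Pygm on, was at 15.1, 7.05 and 9.46 FPKM in CGG and 0.469, 0.591 and 1.17 in CGG-Cit, and fell by 2.69 ± 0.282 (SE; adjusted p = 0.00512). Ppp1r3a, the muscle subunit that targets protein phosphatase to glycogen, was at 6.29, 3.26 and 5.99 and then 0.00869, 0.0602 and 0.293 FPKM, a difference of -2.43 ± 0.246 (SE). It met the minimum level only through its CGG libraries, with 45 fragments in all in CGG-Cit, and its difference depends on the pseudocount. Ppp1r3c, another targeting subunit, was at 18.6, 15.4 and 19.1 and then 4.20, 5.21 and 6.02 FPKM, and fell by 1.61 ± 0.147. None of these 3 overlapped between groups.

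The primer of glycogen Gyg1 fell by 1.19 (adjusted p = 0.0114) and Ugp2, which makes the glucose donor for glycogen, by 0.64 (0.012). Outside glycogen, Adpgk, a glucokinase that uses ADP, fell by 0.98 (adjusted p = 0.0185) and G6pc3, the widespread glucose phosphatase, by 0.48 (0.0179). Without CGG 3 the calls of Gyg1, Ugp2, Adpgk and G6pc3 ended, as did those of Adpgk and G6pc3 without CGG 2 (0.0557 and 0.053) or CGG-Cit 2 (0.0551 and 0.067), of Adpgk without CGG-Cit 1 (0.0535) and of G6pc3 under TPM (0.066). Phkg1, Ppp1r3a and Ppp1r3c passed in all 17 alternative fits. With the replicate number as a block 16 of the 56 passed, where 10.4% of all genes tested did. Without CGG 3 the number was 4 (1.95% of all genes) and without CGG-Cit 2 it was 5 (2.49%). It was 9 without CGG 2 (5.75%), 11 without CGG-Cit 1 (6.28%) and 13 without CGG 1 (7.53%).

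Among the 18 members that passed, Slc2a4, Pfkm, Pgam2, Eno3, Pygm, Aldoa and Pgm1 also passed in all 17 alternative fits. The number of members passing was 7 without CGG 3 (where 1.95% of all genes tested passed), 8 without CGG-Cit 2 (2.49%), 11 without CGG 2 (5.75%) or CGG-Cit 1 (6.28%), 13 without CGG 1 (7.53%) and 21 without CGG-Cit 3 (18.4%). The 2 rises were absent when CGG 2 or CGG 3 was left out, likewise CGG-Cit 1 or CGG-Cit 2, without the filter (8.89% of all genes passing) and with the replicate number as a block (10.4% of all genes). Without CGG 1 the fit held 1 of them, Pygb.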

How the data were processed

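Total RNA of 6 libraries was sequenced in read pairs, per the labels' protocols. Listed in the submitters' processing notes are the tools HISAT2 (2.0.5), featureCounts (1.5.0-p3) and DESeq2 (1.20.0) and, as build, mRatBN7.2, whose roles are not stated there. Neither annotation release nor strand use is given in the sources used here, and without strand overlapping genes cannot be told apart. The table's coordinates were tied to no build, since the last gene on chromosome 1 ends at 282724300. Values are FPKM as the authors deposited them. Their scaling is not by the total of assigned fragments. A fragment in 1 kb stood for 0.0627 FPKM in CGG 1 (15054925 fragments) and 0.0640 in CGG 2 (16224920 fragments). FPKM times the listed gene length gave whole multiples of 1 fragment in 100% of values above 0, within 0.01, which gives the depths and the voom fit. Groups and numbers came from the sample titles.

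Tests used limma 3.58.1 in R 4.3.3 (lmFit, eBayes with trend) on log2(FPKM + 1) with no block term, for genes whose mean reached 0.5 FPKM, checked on simulated data. Isozyme sums and ratios were compared by exact permutation over libraries. Python 3.11.15, pandas 2.3.3 and matplotlib 3.10.9 were used. Members, lists, markers, pairs and the naming rule were chosen with earlier results of these data known. The rule named all members, their values in every library where they passed or were muscle isozymes or partners, the 8 related genes (1 of them is not reported here) and 4 hypoxia genes with the smallest p, and the 2 most abundant markers of each list. Alternatives were other pseudocounts (0.1 and 0.5), no filter or one at 2 FPKM, 4 scalings, robust variance, the replicate block, voom and each library left out. Summing near-identical copies was added after seeing the data.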

Additional observations from a re-analysis of the deposited data

How the results depend on the processing

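Of 632 recomputed differences of members, 568 kept their direction and their side of the threshold, 50 lost the call, 6 gained it and 8 changed sign, all 8 in genes that did not pass. The sign changed under TPM for Aldoc (0.09), Eno1 (0.01) and Pfkfb2 (0.11), without CGG 1 for Pfkl (-0.01) and Aldoc (0.04), without CGG-Cit 1 for Slc16a3 (-0.20) and Pfkfb2 (0.01), and without CGG-Cit 3 for Aldoc (0.09). Among markers that did not pass it changed for Myh11 (-0.08 without CGG 3), Ctsk (0.13 without CGG-Cit 1) and Mbp (0.11 under TPM, 0.16 without CGG 2, 0.01 without CGG 3 and 0.04 without CGG-Cit 1). Under TPM the all-gene median was 0.16 in place of 0.00, that of the widespread members -0.27 and that of the related genes 0.08. The related median, -0.06, was 0.00 without the filter, -0.11 at a mean of at least 2 FPKM, -0.02 with quantile normalization and -0.14 to -0.04 without single libraries. The muscle median was -4.06 with a pseudocount of 0.1, -4.39 with voom and -4.27 at a mean of at least 2 FPKM, where 5 of the 7 were tested. Without the filter 7 of the 30 widespread members passed, where 8.89% of all genes did. Without single libraries 5 to 7 muscle isozymes, 2 to 14 widespread members, 7 to 21 members and 4 to 26 related genes passed. The share of all genes passing in those fits was 1.95 to 18.4%. Over the fits without single libraries the difference ran from -0.01 to 0.07 for Pfkl, -0.16 to 0.09 for Aldoc, -0.20 to 0.28 for Slc16a3, -0.08 to 0.01 for Pfkfb2, -0.08 to 1.13 for Myh11, -0.43 to 0.13 for Ctsk and -0.36 to 0.16 for Mbp. The 9 isozyme ratios kept their sign under each of the 9 alternatives run for them. The deviations of same-numbered libraries correlated at -0.0956, 0.00165 and -0.0779, so no strong shared deviation by number was seen. Whether the numbers pair the samples is not in the labels, and these correlations cannot decide it. With the replicate block 16 related genes passed in place of 27, and 15 members in place of 18, Slc2a1 (adjusted p = 0.077), Pygb (0.058) and Tkt (0.0715) losing the call. With 3 libraries a group, small differences at this depth may go undetected, and genes near the minimum, such as Fbp2, rest on few fragments.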

Other observations

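Genes known to respond to low oxygen, which also drives many glycolytic genes, moved in both directions. The part of oxygen in these differences was not tested. Of 15 tested genes from a list of 16 such genes outside the pathway, 3 rose (Adm, Ndrg1 and P4ha1) and 2 fell (Egln3 and Bnip3l), where 7.75% of all tested genes rose and 9.78% fell. Their median difference was 0.19. Adm, the vasodilator peptide adrenomedullin, was at 3.98, 3.87 and 2.94 FPKM in CGG and 10.2, 11.6 and 12.2 in CGG-Cit and rose by 1.43 ± 0.135 (SE; adjusted p = 0.0041, limma). Ndrg1, a stress-responsive gene, was at 84.9, 72.9 and 55.3 and then 217, 201 and 171.6 FPKM and rose by 1.47 ± 0.174 (adjusted p = 0.00775). Egln3, an oxygen-sensing prolyl hydroxylase, was at 13.8, 12.5 and 12.8 and then 4.90, 3.01 and 4.13 FPKM and fell by 1.502 ± 0.157 (adjusted p = 0.00512). These 3 genes did not overlap between groups and passed in all 17 alternative fits. Bnip3l, a receptor for the removal of mitochondria that is needed in red cell maturation, fell by 0.62 (adjusted p = 0.0266). Its call ended under TPM (0.0645) and, like that of P4ha1 (0.0866 to 0.119), with the removal of any library other than CGG-Cit 3 (0.0638 to 0.093). The call of P4ha1 also ended with the replicate block (0.0993).

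Bpgm, which makes the phosphoglycerate that tunes haemoglobin and belongs to the related genes, was chosen after its values were seen. It was at 108, 117 and 115.7 FPKM in CGG and 35.7, 34.1 and 69.5 in CGG-Cit and fell by 1.35 ± 0.263 (SE; adjusted p = 0.0229). Txnip, a brake on glucose uptake chosen in the same way, rose by 0.76 ± 0.157 (adjusted p = 0.0253), from 238, 216 and 159 FPKM to 340, 347.5 and 339. Slc2a6, a lysosomal sugar carrier of white blood cells chosen likewise, rose by 1.14 (adjusted p = 0.0189). The call of Bpgm ended with the removal of any library other than CGG-Cit 3 (0.0585 to 0.0819). That of Txnip ended without CGG 2, CGG 3 or either of CGG-Cit 1 and 2 (0.0582 to 0.0851), and that of Slc2a6 without CGG 3 (0.0626), CGG-Cit 1 (0.0545) or CGG-Cit 2 (0.0649).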
